A study of Arabidopsis thaliana with 18 samples.

Results

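The response of Arabidopsis thaliana shoots to a rare earth element was measured with the 3 lanthanum (La) and the 3 ytterbium (Yb) shoot libraries taken as 1 exposed group of 6, set against the 3 shoot libraries of plants not exposed. These are 9 of the 18 libraries of the series, the other 9 being roots. Of 28991 genes listed, 21967 had a value of at least 1 in 3 or more shoot libraries and were tested. All plants were wild type Col-0, 6 weeks old, and stood for 72 h in hydroponic medium that lacked phosphate, the control plants included. Exposed plants received 5 µM La or 5 µM Yb as chlorides, and control plants received neither. Each library came from the pooled shoots of 3 plants. Which replicates shared a container is not given in the labels, so the p-values measure only the spread between these samples.

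La and Yb are lanthanides, metals with no known role in plant nutrition that plants meet as trivalent cations. Iron is the nutrient of many of the genes below. It is taken up by roots, carried to the shoot in the xylem and redistributed in the phloem. Most leaf iron serves chloroplasts. Cells short of iron make IRONMAN (IMA) peptides, which protect a group of basic helix-loop-helix (bHLH) transcription factors from the ubiquitin ligases BTS and BTSL. Those factors switch on the genes of the related factors BHLH38, BHLH39, BHLH100 and BHLH101, which in turn drive iron acquisition. Cells rich in iron make ferritins, plastid protein shells that store it. Iron is built into iron-sulfur clusters and hemes, which carry electrons in ferredoxins, photosystems and peroxidases.

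Values are reads per size factor, that is, read counts divided by 1 depth factor per library and not by gene length, so they compare libraries and not genes. Shoot libraries held 12.44 to 16.35 M reads, and the Yb libraries were among the deepest (14.33 to 16.35 M). The 20 light harvesting genes summed to 706400 to 986500 in exposed and 795100 to 1092000 in control shoots, against 704.4 to 1950 in the root libraries, which were scaled separately. Root tissue markers summed to 8.463 to 25.45 in exposed and 6.456 to 15.75 in control shoots, against 440.3 to 8087 in root libraries. CASP2, EXPA7, EXPA18 and RHD6 of that list were at 0 in every shoot library. The 12 inflorescence markers summed to 560.7 to 798.8 in exposed and 697.3 to 727.8 in control shoots, with FT at 0 in every shoot library. Root libraries gave 522.2 to 772.8, so sums of this size do not show inflorescence tissue. In bulk tissue, fewer cells of a type and less RNA per cell cannot be told apart.

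Of the 21967 genes, 37 changed in exposed shoots (0.168%). Of these, 14 rose (0.0637%) and 23 fell (0.105%). The test was limma on log2(value + 0.5), with Benjamini-Hochberg adjustment over all genes and a threshold of 0.05. In each of the 37 genes every exposed library lay on 1 side of every control library, and the La and the Yb means both lay on that side. The pooled test favours genes with such a pattern. Among all tested genes, groups did not overlap in 4.41%, of which 2.07% were higher and 2.34% lower in exposed shoots. At least a doubling was found for 11 genes and at least a halving for 5. An unadjusted p under 0.05 was reached by 1908 genes. With edgeR the calls were 29, of which 5 rose and 24 fell, and with DESeq2 139, of which 62 rose and 77 fell. The number of calls rested on single libraries: it was 8 without control 2 or without La 1, 12 without Yb 2, 13 without Yb 3, 15 without control 1, 17 without La 2, 22 without Yb 1 and 153 without control 3. All 37 kept their direction without each library in turn, and 7 kept their call each time: FD2, AT3G43670, NEET, AT3G49160, MEE3, ABCI8 and SAPX. FER4 kept its call in 8 of the 9 cases and AT2G30760 and AT5G51010 in 7, while each of the remaining 27 genes lost it in 4 to 8 cases.

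Genes of iron shortage signalling were among the largest rises, and the IMA genes come first in that pathway. IMA3 (AT2G30766) had 786.3 to 1376 reads per size factor in the 6 exposed libraries, median 901.6, against 96.9, 159.6 and 38.74 in controls 1, 2 and 3. Every exposed library was well above the highest control, and control 3 was the lowest of all. The log2 fold change was 3.54 ± 0.43 (SE; adjusted p = 0.0441, limma). Its relatives showed the same separation without passing the test. IMA1 (AT1G47400) had 128 to 421.4 in exposed shoots, median 160.8, against 23.73, 37.79 and 13.99 in controls, a log2 difference of 3.07 ± 0.50 (adjusted p = 0.113, limma). IMA2 (AT1G47395) had 112.3 to 435.3, median 188.9, against 13.84, 19.94 and 18.29, a log2 difference of 3.59 ± 0.49 (adjusted p = 0.0529, limma). DESeq2 called both. For all 3 genes La 1 and La 2 were the highest libraries, while La 3 lay among or near the Yb libraries.

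AT2G30760, a gene of unknown product, overlaps IMA3 by 639 bases on the opposite strand. It rose by 2.12 ± 0.31 on the log2 scale, with 12.53 to 23.41 in exposed shoots against 3.955, 3.149 and 3.228 in controls (adjusted p = 0.0153, limma). Whether the reads were assigned by strand is not given in the sources used here, so reads of the 2 genes cannot be told apart.

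Of the bHLH factors downstream of the IMA peptides, 2 rose. BHLH101 (AT5G04150) had 6.348 to 35.33 in exposed shoots, median 27.47, against 2.966, 2.099 and 2.152 in controls. The lowest exposed library was La 3, still above every control, and the log2 fold change was 2.96 ± 0.46 (adjusted p = 0.0215, limma). BHLH38 (AT3G56970) had 7.717 to 62.09, median 24.3, against 0, 2.099 and 0 in controls. With 2 reads in all controls, the ratio of exposed to control was 43.0, with a 95% counting interval of 11.7 to 358 (adjusted p = 0.0332, limma, but 0.264 with edgeR's quasi-likelihood test). BHLH38 overlaps PIP5K4 on the opposite strand by 386 bases, and PIP5K4 averaged 190.9 in exposed and 171.9 in control shoots. BHLH100 (AT2G41240) ranged even more widely, from 10.29 to 233.6 in exposed shoots against 0, 2.099 and 0 in controls. All 6 exposed libraries exceeded the controls, but the gene did not pass the test (adjusted p = 0.218, limma). BHLH39 (AT3G56980) had 1.715 to 29.63 against 0, 2.099 and 0, and its groups overlapped.

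BTSL1 (AT1G74770), a ubiquitin ligase that curbs the iron response, rose as well. It had 17.98 to 43.77 in exposed shoots, median 31.92, against 8.899, 11.55 and 5.38 in controls, a log2 fold change of 1.75 ± 0.32 (adjusted p = 0.0458, limma). It overlaps AT1G74750 by 471 bases. The related ligase BTS (AT3G18290) had 1479 to 2889, median 1834, against 927.5, 989.9 and 846.8. All exposed libraries were above the controls, with a log2 difference of 1.13 ± 0.23 that did not pass the test (adjusted p = 0.203, limma). The bHLH repressor PYE (AT3G47640) had 172.4 to 317.9, median 190.1, against 73.17, 111.3 and 100.1, and a log2 difference of 1.21 ± 0.21 (adjusted p = 0.0766, limma).

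OPT3 (AT4G16370), which loads iron into the phloem and takes part in telling the root about the iron supply of the shoot, had 1724 to 2936 in exposed shoots, median 2017, against 1105, 975.2 and 831.8 in controls. No exposed library reached down to a control. Its log2 fold change was 1.14 ± 0.17 (adjusted p = 0.0458, limma). AT5G05250, a gene of unknown product, had 1210 to 2027, median 1420, against 395.5, 385.2 and 212. It rose by 2.24 ± 0.24 (adjusted p = 0.028, limma) and had no library of the exposed group near a control.

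**Figure D1:**
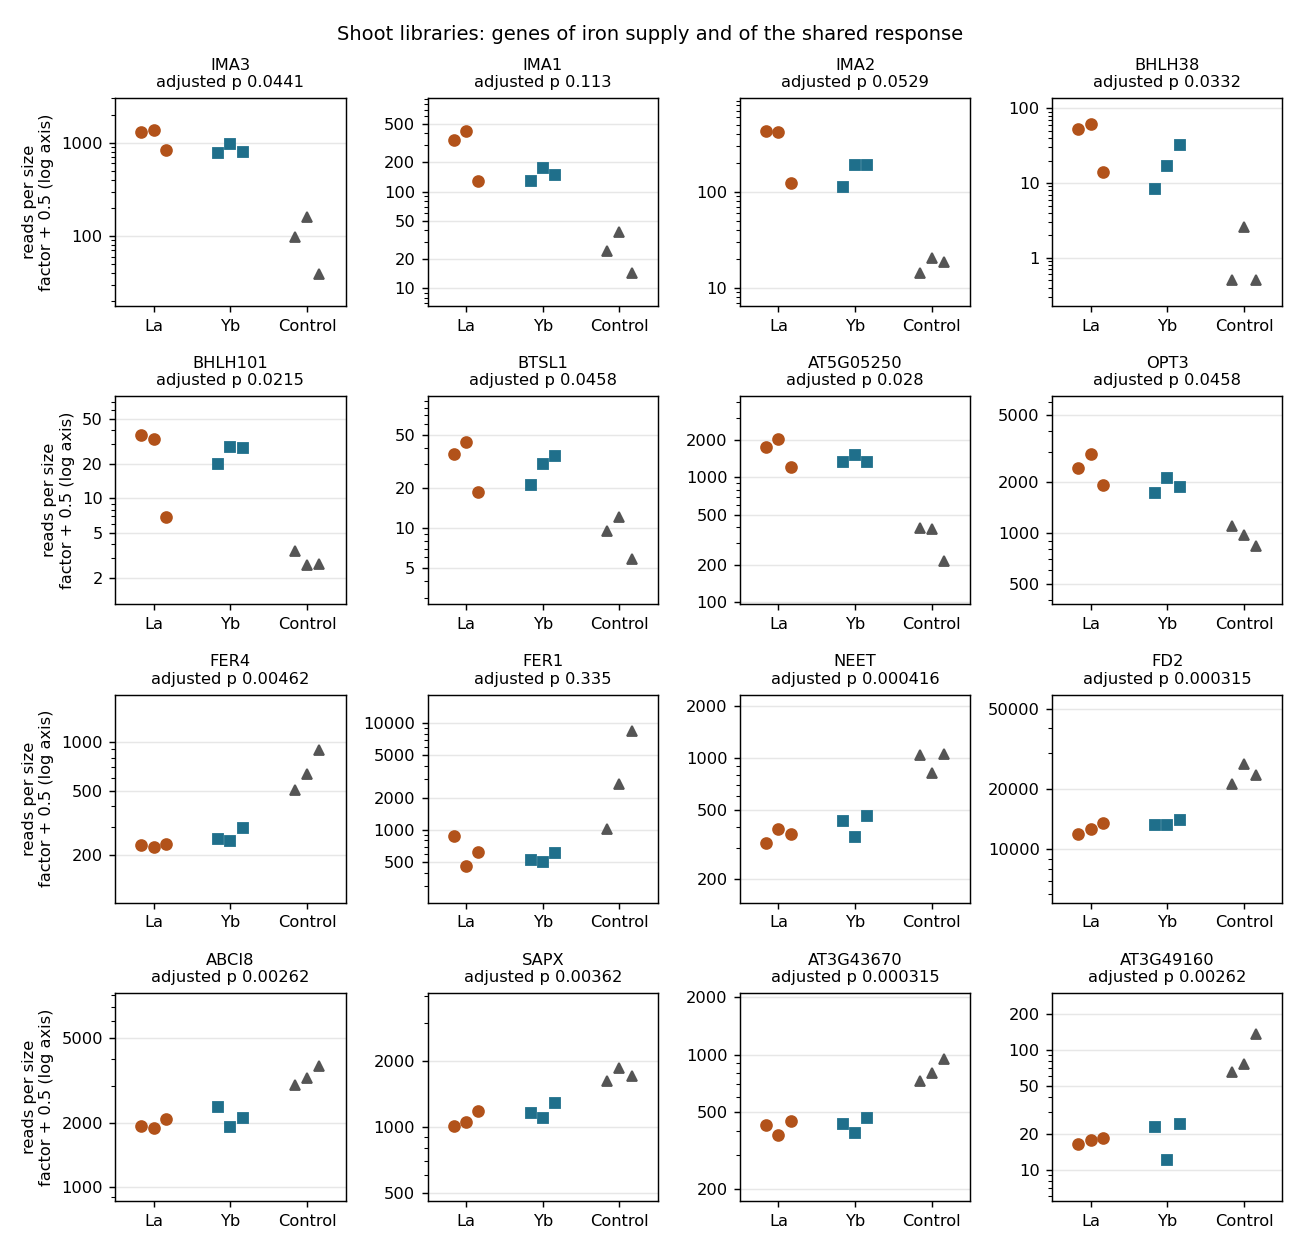
Values of 16 genes in each of the 9 shoot libraries (reads per size factor + 0.5, log axis), La and Yb left of control; each point is 1 library. In all 16 panels the 6 exposed libraries lie on 1 side of the 3 controls; IMA1, IMA2 and FER1 did not pass the test.

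Upstream sequences are shown for 3 of the genes that rose, BHLH38, OPT3 and AT5G05250, because each holds the G-box CACGTG, the palindromic core bound by many bHLH and bZIP factors. The sequences are the 250 bases before the annotated gene start, 5′ to 3′ on the strand of the gene, from the RefSeq copy of the genome (TAIR10.1); capitals mark CACGTG. The windows are chr3:21085246-21085495 (minus strand) for BHLH38, chr4:9250344-9250593 (minus) for OPT3 and chr5:1558487-1558736 (minus) for AT5G05250.
BHLH38: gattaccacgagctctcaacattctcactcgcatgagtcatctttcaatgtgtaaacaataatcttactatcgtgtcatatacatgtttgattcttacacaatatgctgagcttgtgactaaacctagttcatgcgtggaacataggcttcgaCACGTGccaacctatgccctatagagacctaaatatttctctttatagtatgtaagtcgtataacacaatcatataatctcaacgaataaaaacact
OPT3: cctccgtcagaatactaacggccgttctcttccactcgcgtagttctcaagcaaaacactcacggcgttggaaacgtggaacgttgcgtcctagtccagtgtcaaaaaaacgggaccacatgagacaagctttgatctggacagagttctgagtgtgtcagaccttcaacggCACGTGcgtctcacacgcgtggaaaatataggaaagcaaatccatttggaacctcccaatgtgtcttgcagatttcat
AT5G05250: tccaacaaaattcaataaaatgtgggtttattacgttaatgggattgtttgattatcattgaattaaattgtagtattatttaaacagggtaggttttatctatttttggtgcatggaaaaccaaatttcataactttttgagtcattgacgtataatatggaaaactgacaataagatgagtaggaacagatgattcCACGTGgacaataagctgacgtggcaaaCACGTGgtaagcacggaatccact
The motif begins 97 bases before the start of BHLH38, 78 before OPT3, and 52 and 24 before AT5G05250.

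CACGTG was present in the windows of 6 of the 14 genes that rose (42.9%) and 2 of the 23 that fell (8.7%), against 1581 of the 21864 tested genes with a window (7.23%). ACGTGG, searched on both strands like the others, was in 50% of the risers and 13% of the fallers, against 8.9% of all windows; it overlaps CACGTG wherever a G follows. GNATATNC, the P1BS element of phosphate starvation genes, was in 7.14% of the risers and 21.7% of the fallers, against 5.51%. The evening element AAAATATCT was in 0% of the risers and 4.35% of the fallers, against 2.48%, and GTACTA in 0% and 4.35%, against 7.49%. These are counts of letters in a window and were not tested.

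Of the 28 genes on the iron deficiency list, all were in the table and 25 were tested; NAS2, IRT2 and MYB72 were too low in shoots. Of the 25, 5 rose (IMA3, BHLH38, BHLH101, OPT3 and BTSL1), 0 fell and 20 did not pass. Over all genes tested 0.0637% rose and 0.105% fell. The median log2 difference of the list was 1.21, against 0.00 over all genes tested. Like the other lists, it was chosen with earlier results of these data known. In 17 of the 25 all exposed libraries were above all controls, against 2.07% of all genes. Besides those described, the 17 include the ferric reductase FRO3 (AT1G23020, 1.15 ± 0.30), the nicotianamine synthase NAS4 (AT1G56430, 1.05 ± 0.21), the vacuolar transporter ZIF1 (AT5G13740, 1.01 ± 0.24) and ORG1 (AT5G53450, 1.7 ± 0.27). The summed value of the list was 10580 to 19130 in exposed shoots, against 5294 to 5965 in controls. Among the 17 genes the highest library was always a La library, La 3 was always the lowest of the La libraries, and control 3 was the lowest of all 9 libraries in 9 genes. Genes best known from uptake at the root surface are also on the list. FRO2, the root ferric reductase, had a log2 difference of 0.32 ± 0.36 and FIT, the root master regulator, 0.12 ± 0.16, neither past the test. The iron transporter IRT1 had 7 reads in all exposed and 0 in all control shoots, too few to set a ratio. The number of members called depended on the setting: it was 14 with DESeq2, 2 with quantile normalization and 1 with edgeR (BHLH101). It was 0 without control 1, La 1, Yb 2 or Yb 3, 1 without control 2, 2 without control 3 or La 2, and 3 without La 3.

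FER4, NEET and YSL1 fell, 3 of 10 genes on a list of iron storage, where 0.105% of all genes fell. FER4 (AT2G40300), a ferritin, had 222.9 to 295.2 in exposed shoots, median 238.3, against 503.3, 635.1 and 892 in controls. The exposed libraries were close together and the controls, all above them, were spread more widely. Its log2 fold change was -1.42 ± 0.15 (adjusted p = 0.00462, limma). FER1 (AT5G01600), a ferritin of leaves, had 461.1 to 872.9, median 571.1, against 1016, 2684 and 8429. Its groups did not overlap, but the controls differed so much that the log2 difference of -2.28 ± 0.60 did not pass the test (adjusted p = 0.335, limma), although DESeq2 called it. FER3 (AT3G56090) had 362.4 to 505.7, median 462.6, against 472.7, 985.7 and 2047, with control 1 inside the exposed range. NEET (AT5G51720), which carries an iron-sulfur cluster and takes part in iron and oxidant balance, had 321.4 to 463.2, median 376.4, against 1032, 819.8 and 1050. It fell by 1.33 on the log2 scale (SE 0.11, adjusted p = 0.000416, limma). YSL1 (AT4G24120), a transporter of metals bound to nicotianamine, had 189.2 to 213.5, median 201.7, against 249.2, 286.6 and 342.2, a log2 fold change of -0.54 ± 0.09 (adjusted p = 0.0441, limma).

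Of the 10 genes on the iron storage list, all tested, 0 rose, 3 fell (FER4, NEET and YSL1) and 7 did not pass. Over all genes tested 0.0637% rose and 0.105% fell. Their median log2 difference was -0.76, against 0.00 over all genes. This list too was chosen with earlier results of these data known. All exposed libraries were below all controls in 4 of the 10, against 2.34% of all genes. The summed value was 1780 to 2119 in exposed shoots, against 3414, 5511 and 12920 in controls 1, 2 and 3, so control 3 stood apart. Of the 8 members with a negative value, 7 had their highest value of all 9 libraries in control 3. Without control 2 the number that fell was 1.

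The 8 genes with the smallest p were lower in exposed shoots, FD2 and ABCI8 among them. FD2 (AT1G60950), the main ferredoxin of leaves, which passes electrons on from photosystem I, had 11990 to 14080, median 13170, against 21120, 26660 and 23520. Exposed libraries differed little and controls began far above them. The log2 fold change was -0.86 ± 0.08 (adjusted p = 0.000315, limma). ABCI8 (AT4G04770), the SUFB scaffold on which plastid iron-sulfur clusters are assembled, had 1895 to 2379, median 2007, against 3004, 3270 and 3710, a log2 fold change of -0.70 ± 0.08 (adjusted p = 0.00262, limma). Next in order of p came AT2G30760, which rose, and AT5G51010. AT5G51010, a rubredoxin-like protein, had 699.3 to 931, median 867.4, against 1190, 1432 and 1499, a log2 fold change of -0.71 ± 0.10 (adjusted p = 0.0153, limma). It overlaps CRL by 355 bases, and CRL averaged 664.6 in exposed and 726.6 in control shoots.

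Relatives of ABCI8 and FD2 did not pass the test. Among 12 plastid iron-sulfur assembly genes, a list drawn up after the values were seen, 1 fell and 11 did not pass, with log2 differences from -0.18 to 0.02 for those 11. SUFC, SUFD, NFS2 and SUFE, the partners of ABCI8 in the same pathway, had 0.00, 0.02, 0.02 and 0.01. Of 5 plastid ferredoxins, likewise chosen later, FD2 fell and 4 did not pass. Over all genes 0.105% fell, but both lists were chosen with the falls of ABCI8 and FD2 known. FD1 (AT1G10960), the minor leaf ferredoxin, had 1859 to 2631 in exposed shoots against 2270, 2752 and 2395, a log2 difference of -0.08 ± 0.10. FDC1 (AT4G14890) had 1558 to 1789 against 1846, 2089 and 1862, lower in every exposed library, with a log2 difference of -0.22 ± 0.06 (adjusted p = 0.291, limma). FDC2 (AT1G32550) had -0.14 ± 0.06 with overlapping groups. FD3 (AT2G27510), the ferredoxin of non-green plastids, had 290.7 to 327.6 against 259.1, 268.7 and 264.7, higher in every exposed library, with a log2 difference of 0.24 ± 0.07 (adjusted p = 0.295, limma).

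Ascorbate peroxidases are heme enzymes that remove hydrogen peroxide. Of 7 tested members of a list also drawn up after the values were seen, 2 fell, where 0.105% of all genes fell. SAPX (AT4G08390), of the chloroplast stroma, had 1007 to 1295, median 1132, against 1631, 1875 and 1707, a log2 fold change of -0.62 ± 0.08 (adjusted p = 0.00362, limma). APX1 (AT1G07890), of the cytosol, had 6742 to 8241, median 7556, against 9738, 10970 and 13470, a log2 fold change of -0.57 ± 0.09 (adjusted p = 0.0314, limma). The thylakoid enzyme TAPX (AT1G77490) had -0.09 ± 0.07 with overlapping groups. Other fallers that work in the chloroplast were SIR (AT5G04590), the sulfite reductase, which holds an iron-sulfur cluster and a siroheme (-0.31 ± 0.06), the photosystem I subunit gene PSAN (AT5G64040, -0.49 ± 0.08) and AT2G26500, the petM subunit of the cytochrome b6f complex (-0.39 ± 0.07). They were joined by MSRB6 (AT4G04840), a methionine sulfoxide reductase (-0.63 ± 0.09), and AT3G47070, a thylakoid phosphoprotein (-0.63 ± 0.11) that overlaps ftsh7. SAPX, ABCI8 and these 5 were among 14 called genes that the naming rule did not pick and that were named after their values were seen.

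The remaining genes that fell have varied roles. AT3G49160, of the pyruvate kinase family, had 11.56 to 23.51 in exposed shoots, median 17.64, against 64.27, 75.58 and 134.5, the largest fall of all at -2.27 ± 0.27 on the log2 scale (adjusted p = 0.00262, limma). AT3G43670, of the copper amine oxidase family, had 378.7 to 468.5, median 429.8, against 726.8, 799.9 and 954.4, a log2 fold change of -0.96 ± 0.09 (adjusted p = 0.000315, limma). MEE3 (AT2G21650), a small MYB-like protein, had 88.56 to 121, median 100.9, against 259.1, 177.4 and 288.4, a log2 fold change of -1.22 ± 0.15 (adjusted p = 0.00262, limma). In each of these 3 genes the exposed values spanned less than the controls did.

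GDH3 (AT3G03910), a glutamate dehydrogenase, fell by 1.17 (SE 0.21) and AT2G36885 by 0.70 (SE 0.12) on the log2 scale. AT1G53887 had -0.98 ± 0.17, but it shares a stretch of 399 bases at 100% identity with AT1G53910, so its reads are uncertain. The cytokinin response regulator ARR7 (AT1G19050) had 443.8 to 557.5, median 475.5, against 829.6, 882.8 and 612.3, a log2 fold change of -0.65 ± 0.11 (adjusted p = 0.0458, limma). It was the only one of 12 tested cytokinin genes to pass, where 0.105% of all genes fell. At an unadjusted p under 0.05 (limma) 8 were down, and DESeq2 called ARR6 besides ARR7. Of the 12, 11 were negative, their median was -0.36, and 3 lay below the controls in every exposed library, against 2.34% of all genes. LOL1 (AT1G32540, -0.56 ± 0.10), ARF11 (AT2G46530, -0.55 ± 0.08), an auxin response factor, and TPD1 (AT4G24972, -0.62 ± 0.10), first known from anther development, complete the 23.

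The other 7 genes that rose have varied roles. SOM (AT1G03790), a zinc finger protein that represses seed germination in the dark, had 6.348 to 33.05, median 18.73, against 0, 1.05 and 3.228, a log2 fold change of 3.55 ± 0.60 (adjusted p = 0.0441, limma). NADP-ME1 (AT2G19900), a malic enzyme, had 6.86 to 11.64, median 9.347, against 0, 0 and 3.228. With 3 reads in all controls the ratio was 8.93, with a 95% counting interval of 2.91 to 44.6 (adjusted p = 0.0441, limma, but 0.165 with edgeR). AT1G30700, of the berberine bridge enzyme family, rose by 1.56 ± 0.28 and AT5G50360 by 1.41 ± 0.23. AT1G73040, a mannose-binding lectin, rose by 0.81 ± 0.15. DGAT3 (AT1G48300), a soluble diacylglycerol acyltransferase, had 3984 to 4756, median 4224, against 3268, 2841 and 2131, a rise of 0.66 ± 0.11. SIP2 (AT3G57520), which breaks down raffinose, had 1061 to 1376, median 1132, against 771.3, 795.7 and 875.9, a rise of 0.51 ± 0.08 (adjusted p = 0.0222, limma).

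**Figure D2:**
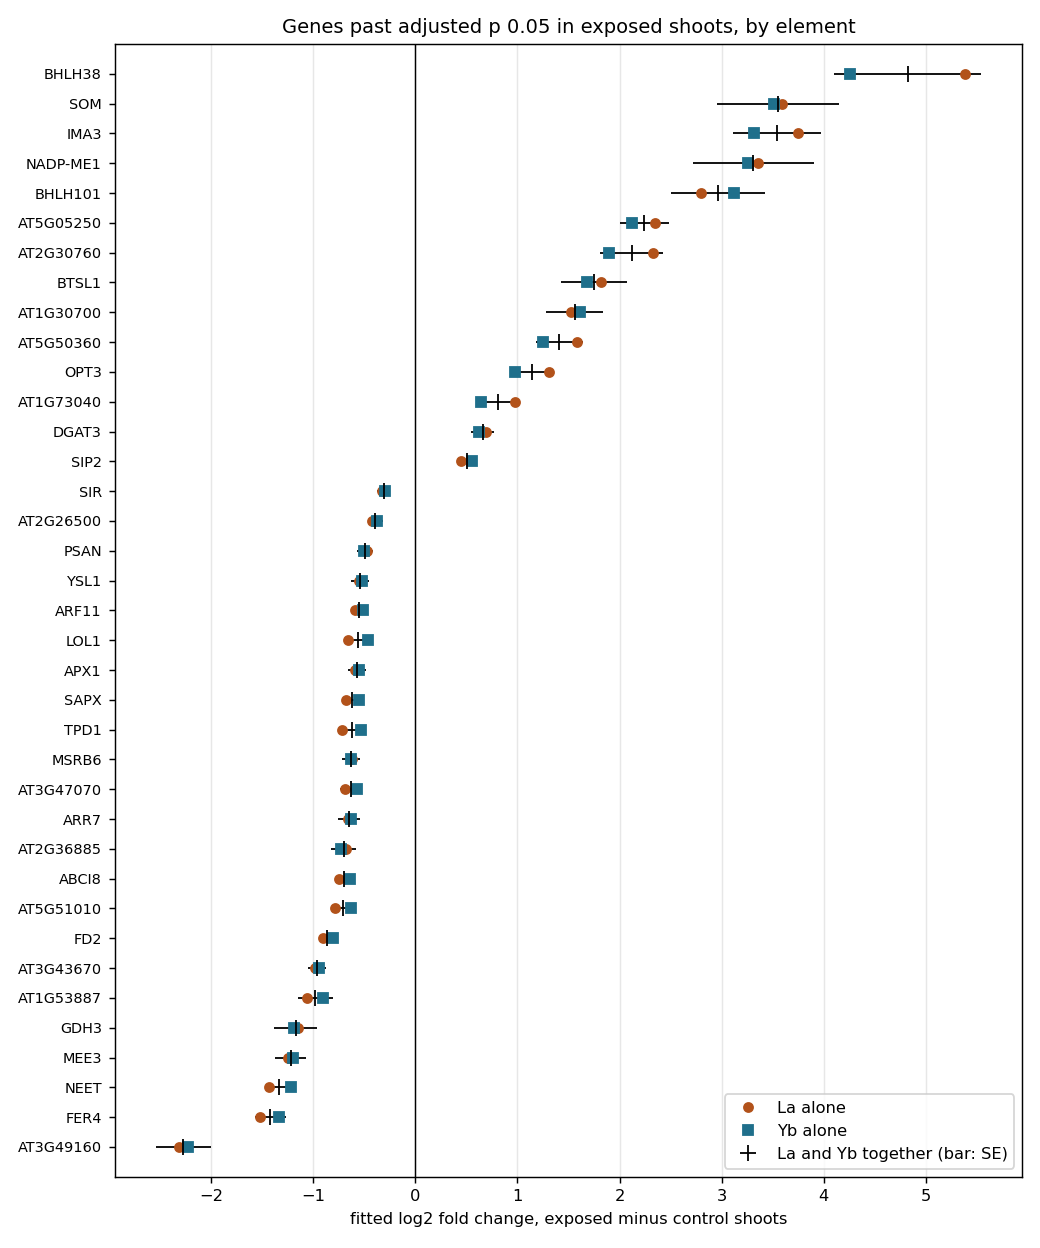
Fitted log2 fold change (exposed minus control shoots) of the 37 genes past the test, for La alone (circles), Yb alone (squares) and both together (ticks, bars: SE). Both elements lie on the same side of 0 for every gene, which selection by the pooled test favours. The widest gap between them is 1.13 (BHLH38).

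La alone against control called 19 genes (0.0865%), 5 up (0.0228%) and 14 down (0.0637%). Yb alone called 9 (0.041%), all of them down, and 0 up (0%). These contrasts share the 3 control libraries with each other and with the pooled contrast. Side by side, FER4 had -1.52 with La and -1.33 with Yb, NEET -1.43 and -1.22, FD2 -0.90 and -0.81, and ABCI8 -0.75 and -0.64. Among the risers IMA3 had 3.75 and 3.32, AT5G05250 2.35 and 2.12, OPT3 1.31 and 0.98, and BHLH101 2.80 and 3.12. La gave the higher value in 11 of the 14 risers and the lower value in 19 of the 23 fallers.

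The elements were compared directly at the same dose and time with the La minus Yb contrast of the 3-group fit. Over all genes 2 of 21967 differed (0.0091%), AT2G44940 and AT3G06070, neither of them among the 37. None of the 37 differed (limma, 0 past the threshold, 1 with an unadjusted p under 0.05). That gene was AT1G73040, higher with La by 0.34 (95% interval 0.02 to 0.66). For 31 of the 37 the 95% interval of the difference lay within 1 log2 unit of 0 on both sides. It ran from -0.28 to 0.11 for FD2, from -0.47 to 0.06 for NEET and from -0.01 to 0.68 for OPT3. It was wide for the low genes BHLH38 (-0.60 to 2.85), SOM (-1.51 to 1.66), NADP-ME1 (-1.40 to 1.60), BHLH101 (-1.49 to 0.85) and AT2G30760 (-0.32 to 1.17). IMA3, which is not low, had -0.78 to 1.64. Differences of more than a doubling lie within the intervals of each of these genes.

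**Figure D3:**
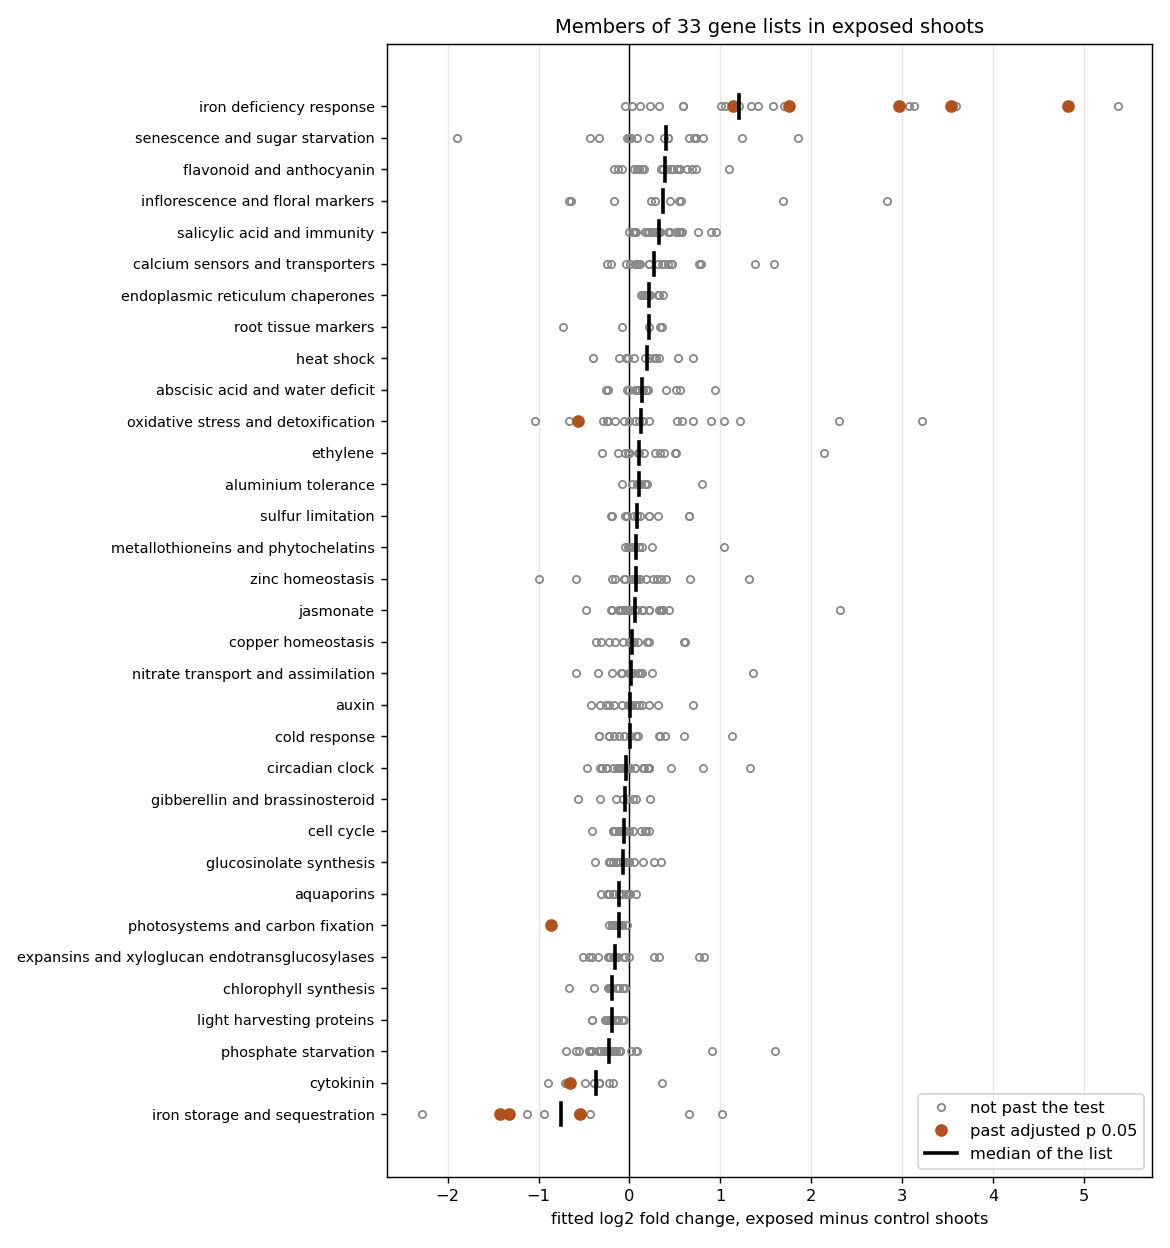
Fitted log2 fold change of each tested member of 33 gene lists (exposed minus control shoots), lists ordered by median. Filled points passed the test. The iron deficiency list has the highest median (1.21) and the iron storage list the lowest (-0.76). The lists were chosen with earlier results of these data known.

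Among 33 gene lists, 5 held a gene past the test: iron deficiency, iron storage, photosystems and carbon fixation (FD2), cytokinin (ARR7) and oxidative stress (APX1). The other 28 lists, with 450 different genes tested, held none with limma or edgeR and 7 with DESeq2, which called 139 of all 21967 genes. An unadjusted p under 0.05 (limma) was reached by 66 of the 450, against 1908 of the 21967. Both shares were above those over all genes, and this was not tested. Photosynthesis lists sat slightly low. All 15 photosystem and carbon fixation genes were negative, median -0.12, and in 6 every exposed library was below every control, against 2.34% of all genes. All 20 light harvesting genes were negative, median -0.19, as were all 13 chlorophyll synthesis genes, median -0.19. With quantile normalization 10 of 15, 14 of 20 and 12 of 13 were negative, and the medians were -0.04, -0.05 and -0.15.

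Phosphate starvation genes, in plants that all stood in phosphate-free medium, had a median of -0.23 over 27 tested members, 0 past the test with limma and edgeR, 2 with an unadjusted p under 0.05 and 1 with DESeq2. The phosphate sensor SPX1 (AT5G20150) had 2599 to 3869, median 3088, against 4073, 3221 and 4868, a log2 difference of -0.35 (95% interval -0.71 to 0.01). The transporter PHT1;4 (AT2G38940) had -0.10 (-0.72 to 0.52). Their groups overlapped.

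Salicylic acid and immunity genes had a median of 0.33 over 23 members, -0.05 with La and 0.74 with Yb, with 0 past the test with limma and edgeR, 3 with an unadjusted p under 0.05 and 1 with DESeq2. PR1 (AT2G14610), the classic marker of this hormone, had 40.2 to 372.1 in exposed shoots against 106.8, 83.98 and 188.3 in controls, a log2 difference of 0.58 (95% interval -1.33 to 2.5). In the oxidative stress list AOX1D (AT1G32350), an alternative oxidase, had 10.18 to 47.89 against 1.978, 5.249 and 7.532 and UGT74E2 (AT1G05680), a glucosyltransferase, 19.27 to 48.76 against 0.9888, 1.05 and 15.06. Both were higher in every exposed library, without passing the test (adjusted p = 0.107 and 0.192, limma), and both were called by DESeq2. The catalase CAT2 (AT4G35090) had 1524 to 2385 against 3306, 2636 and 2476, lower in every exposed library (-0.66 ± 0.15, adjusted p = 0.242, limma). DESeq2 called CAT2 too, and also the catalase CAT3.

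None of the panel genes for other metals and stresses passed the test. Of the lists without a call, all 9 endoplasmic reticulum chaperone genes were positive, median 0.22. In that list 5 had an unadjusted p under 0.05 (limma), and DESeq2 called BIP1. Senescence and sugar starvation genes had a median of 0.40, 13 positive and 5 negative. Of these, 5 were up and 1 down at an unadjusted p under 0.05 (limma). The zinc transporter ZIP4 (AT1G10970) had 202.4 to 258.2 against 160.2, 166.9 and 201.2, all exposed libraries above the controls by a small margin (0.40 ± 0.10, adjusted p = 0.192, limma). The copper transporter COPT2 (AT3G46900) had 0.19 (95% interval -0.84 to 1.23), the iron superoxide dismutase FSD1 (AT4G25100) 0.61 (-1.33 to 2.55) and the copper-zinc enzyme CSD2 (AT2G28190) -0.31 (-0.73 to 0.10). ALMT1 (AT1G08430), the malate channel of aluminium tolerance, had 0.80 (0.02 to 1.58, adjusted p = 0.561, limma). The jasmonate marker VSP2 (AT5G24770) had 0.21 (-0.39 to 0.80), the flavonoid gene CHS (AT5G13930) 0.35 (-0.47 to 1.18), the drought and cold gene RD29A (AT5G52310) -0.03 (-0.23 to 0.17), the clock gene CCA1 (AT2G46830) -0.05 (-0.94 to 0.84) and LHCB1.1 (AT1G29920), which has a near-identical copy, -0.20 (-0.76 to 0.36). Each of these 9 had overlapping groups, and intervals as wide as those of FSD1 or PR1 do not show that the gene was level.

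**Figure D4:**
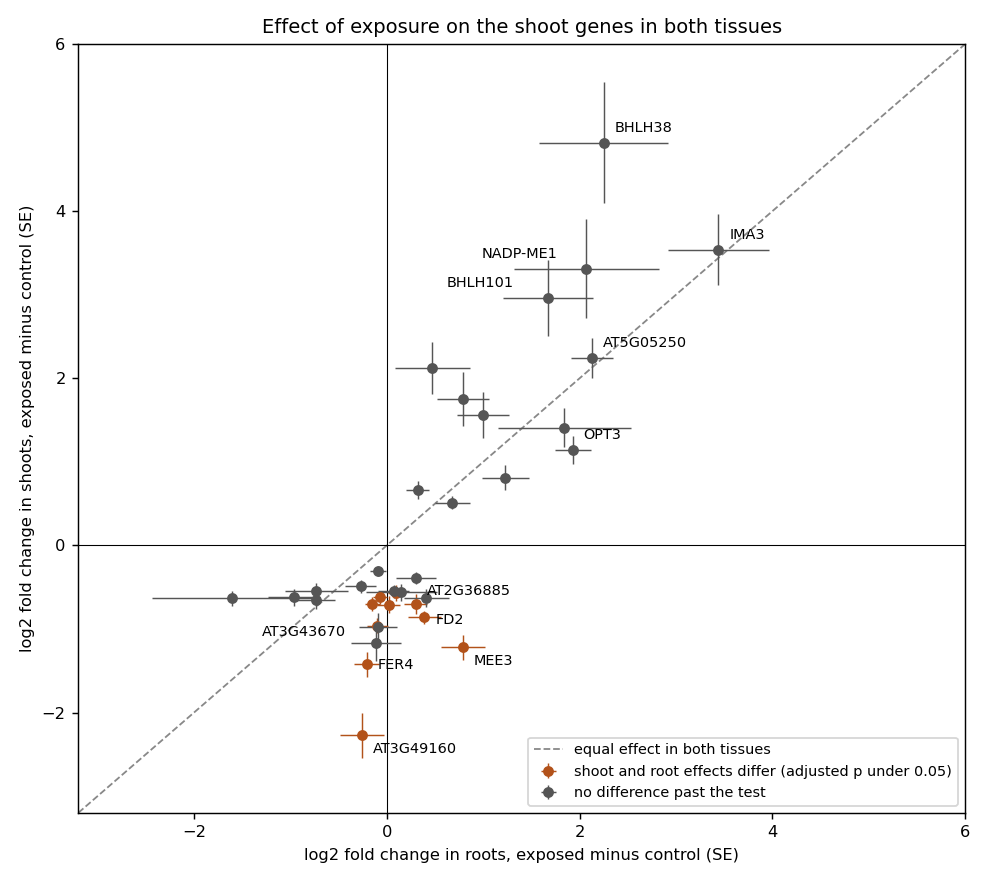
Log2 fold change in shoots (vertical axis) against that in roots (horizontal axis), exposed minus control with SE, for the 35 shoot genes testable in both tissues; dashed line: equal effects. The risers lie in the upper right, while 10 fallers, in orange, lie below the line, between -0.26 and 0.79 on the root axis. Selection by the shoot test favours a larger effect in shoots.

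The same comparison in roots, 6 exposed against 3 control libraries, called 640 of 22729 genes (2.82%). Of the 37 shoot genes 4 were called there, all up (1.87% of all root genes): BHLH38, IMA3, AT5G05250 and OPT3. OPT3 averaged 290.4 ± 63.46 in exposed and 75.85 ± 17.64 in control roots (SD, n = 6 and n = 3 libraries), and AT5G05250 525 ± 133 and 117 ± 13.8. Root calls also included genes not called in shoots. IMA1 and IMA2 each rose by 2.97 (adjusted p = 0.00168 and 0.00621, limma), and FER1 fell by 0.78 (adjusted p = 0.0308, limma). Of 25 iron deficiency members tested in roots, 11 rose and 1 fell. Of 9 iron storage members, 0 rose and 1 fell. Over all 22729 genes tested in roots, 426 rose and 214 fell. Root controls 1 and 3 stood apart from the other root libraries. Chloroplast genes took 0.0498% and 0.0445% of their reads, against 0.000776% to 0.00728% in exposed roots and 0.00541% in control 2. Mitochondrial genes took 0.065% and 0.0549%, against 0.0032% to 0.0118% in exposed roots and 0.00948% in control 2. The part of this in the root effects was not tested. Of the 4 genes, IMA3 and BHLH38 lost their root call without control 1, where 339 genes passed, and BHLH38 lost it without control 3, where 172 passed. Without both controls, a comparison of 6 exposed libraries with a single control assumed to vary like them, 4 genes passed and 0 of the 35 shoot genes tested were among them, 13 having an unadjusted p under 0.05 (limma).

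The effect in shoots minus the effect in roots was tested in a fit of all 18 libraries, where 192 of 20981 genes differed (0.915%). SOM and NEET were too low in roots to be tested. Of the 13 risers tested, 0 differed between tissues and 4 had an unadjusted p under 0.05 (limma). The difference of effects was 0.09 ± 0.73 for IMA3 (3.54 in shoots and 3.44 in roots) and 0.10 ± 0.31 for AT5G05250. It was 2.57 ± 0.94 for BHLH38, 1.65 ± 0.55 for AT2G30760 and -0.79 ± 0.27 for OPT3. Not passing therefore does not show equal effects in the 2 tissues. Of the 22 fallers tested, 10 differed, each with the lower value in shoots (0.663% of all genes). The fallers were picked by their fall in these same shoot libraries, which favours such a difference.

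FER4 fell in shoots but had a log2 difference of -0.21 ± 0.13 in roots, where it averaged 219 ± 20.0 in exposed and 253 ± 19.5 in control libraries. The difference of effects was -1.21 (adjusted p = 0.00316, limma). FD2 had 0.39 ± 0.17 in roots (148.7 ± 35.6 in exposed and 110.5 ± 6.78 in control roots), a difference of effects of -1.24 (adjusted p = 0.0174, limma). MEE3 averaged 10.6 ± 2.35 in exposed and 5.97 ± 1.90 in control roots, a log2 difference of 0.79 that did not pass in the fit of roots alone (adjusted p = 0.194, limma). Its difference of effects was -2.01 (adjusted p = 0.00468, limma). AT3G49160 had -0.26 ± 0.23 in roots, AT3G43670 -0.10 ± 0.11, AT5G51010 0.02 ± 0.12, AT2G36885 0.30 ± 0.12, APX1 0.10 ± 0.09, SAPX -0.07 ± 0.07 and ABCI8 -0.15 ± 0.08. The differences of FER4, MEE3, AT3G49160, AT3G43670 and AT2G36885 passed without each of the 18 libraries in turn. Those of FD2, SAPX and ABCI8 were lost without root control 3 or shoot control 2 (ABCI8 also without shoot control 3), that of APX1 without root control 3, and that of AT5G51010 remained in 4 of 18. Without root controls 1 and 3 together, an alternative chosen after seeing the data, 152 genes differed. The differences of FER4 (-1.30), MEE3 (-2.50) and AT2G36885 (-0.98) passed there, and that of AT3G49160 (-2.01) did not (adjusted p = 0.054, limma). That of AT3G43670 did not pass either, at -0.60 (adjusted p = 0.146, limma), nor did those of FD2, SAPX, ABCI8, APX1 and AT5G51010, while ARF11 passed. Each table was scaled within its tissue, so only effects and not levels were compared.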

How the data were processed

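Polyadenylated RNA of pooled shoots was sequenced with stranded paired-end libraries, per the labels' protocols. What was deposited is a signal for every gene, made by the authors from counts with 1 size factor per library and without gene length, although the deposited table is named for a length-normalized unit. In every library 100% of the values were whole multiples of a common step (within 0.001), and these steps matched median-of-ratios size factors of the 9 libraries of a tissue (shoots 0.878 to 1.17). Per the submitters' processing notes, the genome was TAIR10 and the tools were HTSeq 0.6.1p1, TopHat2 2.1.1 and Trimmomatic 0.36.1; the strand setting is not given in the sources used here.

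Genes with a value of at least 1 in 3 or more shoot libraries were fitted on log2(value + 0.5) with limma 3.58.1 in R 4.3.3 (trend and robust moderation, two-sided, Benjamini-Hochberg over all tested genes, threshold 0.05). edgeR 4.0.16 and DESeq2 1.42.0 were run on the recovered reads as alternatives. Shoot libraries held 12.44 to 16.35 M reads. Replicates differed beyond counting error (chi-square per degree of freedom 3.16 to 12.13); counting intervals cover counting error only, since no molecular identifiers are described. On simulated counts with these depths, the test found 60.6% of 1.5-fold, 82.4% of 2-fold and 96.7% of 4-fold changes. Of its 173 calls, 15 (8.7%) were genes not changed in the simulation. Changed genes were drawn above a minimum mean read count and had the same fold with La and Yb. These shares therefore do not cover low genes or effects that differ between the elements.

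Named genes were the 10 largest rises and 10 largest falls past the test, where the mean was 10 or more and the groups stood apart, up to 3 members of each of the lists with most calls (at most 8 lists), and a panel of 19. The comparison, the 33 lists (566 members) and the panel were chosen with earlier results of these data known, so no list is independent evidence of its direction. The log2 test was kept although the values proved to be scaled counts. Names such as IMA1 to IMA3 and BTSL1 follow usage in the field, by locus; other names, gene starts and upstream sequences come from RefSeq (TAIR10.1, whose nuclear sequence is that of TAIR10).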

Additional observations from a re-analysis of the deposited data

Results flagged for a closer look

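The effect of exposure in shoots minus that in roots differed past adjusted p 0.05 (limma, 18 libraries) for 8 genes named by the rule. The difference was -2.0 on the log2 scale for AT3G49160, -1.21 for FER4, -2.01 for MEE3, -0.86 for AT3G43670, -1.24 for FD2, -0.73 for AT5G51010, -1.0 for AT2G36885 and -0.68 for APX1. In each the shoot value was the lower one. These genes were picked by their fall in the same shoot libraries, which favours such a difference. Without root controls 1 and 3, FER4, MEE3 and AT2G36885 passed and the other 5 did not.

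RD29A, a drought and cold gene, did not change with exposure past the test. It had 34170 reads per size factor in La 1, above the other 5 exposed shoot libraries (25000 to 28300) and an outlier by Dixon's criterion. Control 2 had 31340. RD29A was the 1 gene of 39 examined that met this criterion in the group of 6 exposed libraries. Chance gives about 1 in 20 genes, so 1 of 39 is no more than chance gives.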

How the results depend on the processing

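With 37 calls in the main analysis (14 up, 23 down), DESeq2 gave 139 (62 up, 77 down), of which 125 met the rule for a common response. edgeR gave 29 calls with 5 up. La alone gave 19 (5 up, 14 down) and Yb alone 9 (0 up, 9 down). Other settings gave 28 to 46. Leaving out each shoot library in turn gave 8 to 153 calls, with 0 to 86 up and 7 to 67 down. Of the 37 genes, 36 were called by DESeq2 and 28 by edgeR. The common response likewise ran from 8 to 153. Without control 3 the 153 calls included 124 genes outside the 37. Iron deficiency members up were 5; they were 1 with edgeR, 14 with DESeq2, 2 with quantile normalization, 2 with La alone, 0 with Yb alone and 0 to 4 with a library left out. Iron storage members down were 3, and 1 to 3 with a library left out. Genes with a different effect in shoots and roots were 192; they were 701 with 6 groups, 221 with a pseudocount of 1 and 86 to 1091 with a library left out, the highest without root Yb 3 and the lowest without shoot control 2. They were 152 without root controls 1 and 3, an alternative chosen after seeing the data. The causes were not tested.

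Fitting the replicate number as a block gave 46 calls, 34 of them among the 37, and 128 tissue differences. Correlations of same-numbered shoot libraries' deviations ran from -0.201 to 0.21, so the numbers were not taken as pairs. For single named genes, 780 values under the alternatives held 173 that lost and 8 that gained a call. The 780 include panel genes that did not pass in the main fit and so had no call to lose. Some of these changed sign with a library left out, such as CCA1 (-0.31 to 0.34) and PHT1;4 (-0.44 to 0.16). With 3 controls, 1.5-fold changes were found less often than larger ones.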
